A study of Bos taurus with 20 samples.

Results

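Scurred cattle carry scurs, loose rudimentary horn-like growths that are not fused to the skull, and polled cattle carry no horns. Skin of the horn-forming region was compared between these types of animal on 4 of the 20 arrays of the study, one on each of chips 1 to 4, chosen by their titles. Each of these arrays carried RNA of 1 scurred animal labelled with Cy5 and RNA of 1 polled animal labelled with Cy3, so that 4 scurred and 4 polled animals were measured, each animal once, with no dye swap. The chip pair was the unit of all comparisons (n = 4). The other 12 arrays of chips 1 to 4 joined the same animals to horned animals, and 8 of them measured polled against horned with both dye orders.

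The biopsies held epidermis, dermis and dermal connective tissue. The polled animals were 1 male and 3 females, and the scurred animals were 3 males and 1 female. The scurred animal was male and the polled animal female on chips 1, 3 and 4, and the reverse held on chip 2. Horn type and sex therefore overlapped and differed in their alignment on 1 chip only. Age and breed of the animals were not given in the sources used here. The biopsies were whole tissue, in which fewer cells of a type and less RNA per cell cannot be told apart.

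A horn of cattle consists of a keratinised epidermal sheath over dermis and a bony core, which ossifies under the skin and fuses with the skull. Scurs are set in the skin of the same site and usually stay loose. Dermal fibroblasts lay down the collagens and proteoglycans of this tissue, keratinocytes form the epidermal barrier, hair follicles and their sebaceous glands sit between them, and resident macrophages clear debris and take part in tissue remodelling. RXFP2, a relaxin family receptor, is known as a gene needed for horn growth in ruminants, and FOXL2, a forkhead transcription factor, is known from the polled condition in goats.

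Each value is the log2 ratio of scurred over polled on a chip, less the dye effect of the same chip, which was taken as the mean of its dye-swapped polled and horned arrays. The dye effect was small, with an SD over probes of 0.112 to 0.169. A second route to the same difference ran through the horned animal of the chip and correlated with the direct route at 0.97, 0.942, 0.938 and 0.933 on chips 1 to 4, across probes, which are not independent replicates. Both routes used RNA of the same animals, so this describes the precision of the arrays and not the spread between animals.

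**Figure D1:**
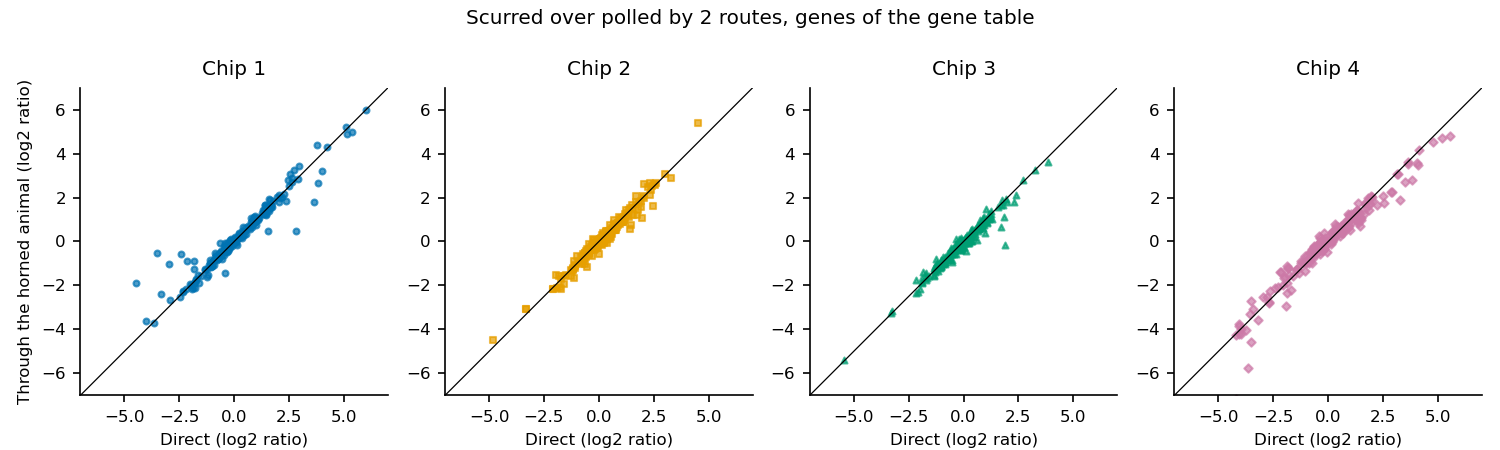
Scurred over polled as a log2 ratio for the 201 genes of the gene table, 1 panel per chip, with the direct array on the horizontal axis and the route through the horned animal of the chip on the vertical axis. Points lie along the line of equality, with a median absolute difference over all probes of 0.0948 on chip 1 and 0.147 on chip 4.

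The pairs of animals differed from each other more than the routes did. Correlations of the chip values across probes were 0.391 between chips 2 and 3, 0.235 between chips 2 and 4 and 0.161 between chips 3 and 4. Chip 1 stood apart, with correlations of −0.231, −0.0677 and 0.0491 with chips 2, 3 and 4. Chip 1 was also scanned on another day than chips 2 to 4, so its scan day and its animals cannot be told apart. Counts that move by much without chip 1 are given without it for the lists described in detail. Without chip 1, 7.67% of all genes were higher and 6.91% lower at an unadjusted p under 0.05, beside 5.07% and 3.89% with it.

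Of 15805 probes tested with limma, 0 passed an adjusted p of 0.05, and the lowest adjusted p was 0.502. At an unadjusted p under 0.05 there were 1377 probes (8.71%), of which 711 were higher in scurred skin (4.50%) and 666 lower (4.21%). Without chip 1 there were 2191 such probes and again 0 that passed, with a lowest adjusted p of 0.181. Without chip 2 the count was 863, without chip 3 it was 884 and without chip 4 it was 883. Values below are thus sizes and counts, and no single gene is reported as changed. As background for the counts of genes, 1519 probes (9.61%) were higher on 4 of 4 chips and 1469 (9.29%) lower. The levels of the 4 scurred animals all lay above those of the 4 polled animals for 257 probes (1.63%) and all below for 246 (1.56%).

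A mean of at least 1 in size, which is a difference of at least 2 times, with one sign on 4 of 4 chips was found for 86 probes higher (0.544%) and 62 lower (0.392%) in scurred skin. From the genes among them the 12 higher and the 12 lower of lowest p are described first. Their common sign is set by that choice and is no evidence.

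**Figure D2:**
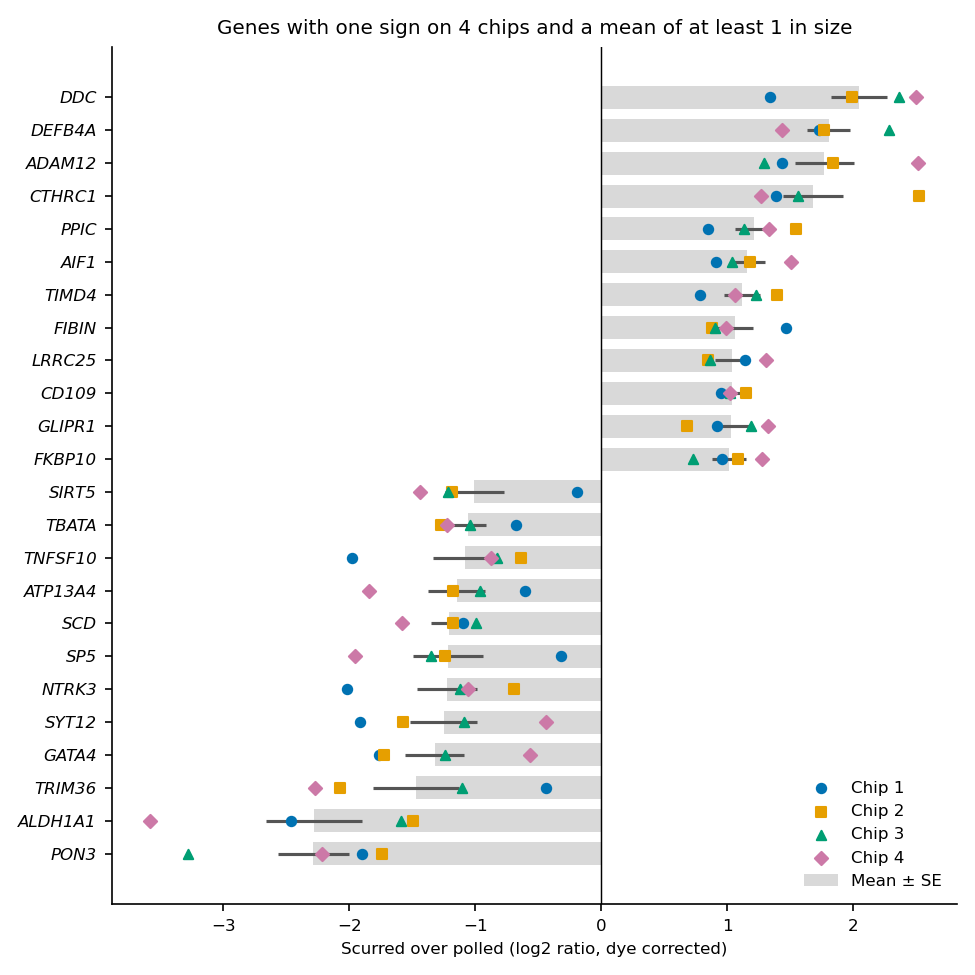
Dye-corrected log2 ratio of scurred over polled for the 24 genes, with 1 point per chip and bars for the mean ± SE (n = 4 chips). DDC has the largest positive mean, 2.05, and ALDH1A1 has −2.28, as does PON3, whose probe was well above background in 1 of 4 scurred animals.

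Genes of collagen handling and of matrix-forming fibroblasts formed one part of the higher genes. FKBP10, a prolyl isomerase that assists collagen folding in the endoplasmic reticulum, had chip values of 0.96, 1.08, 0.73 and 1.28 and a mean of 1.01 (SE 0.133, adjusted p 0.502). Its levels overlapped between the types, because the polled animal of chip 1 lay above the scurred animal of chip 2. CTHRC1, a secreted protein of collagen-producing fibroblasts, stood at 1.39, 2.52, 1.56 and 1.27, with a mean of 1.68 (SE 0.24). ADAM12, a membrane metalloprotease of activated mesenchymal cells, stood at 1.43, 1.84, 1.29 and 2.52, with a mean of 1.77 (SE 0.233). The log2 intensity of ADAM12 was 7.28 to 8.56 in polled and 9.12 to 10.29 in scurred animals, with no overlap. PPIC, a cyclophilin that isomerises proline bonds, had values from 0.84 to 1.54 and a mean of 1.22 (SE 0.152), and FIBIN, a secreted protein, from 0.88 to 1.47 with a mean of 1.06 (SE 0.146). Both had levels without overlap.

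Macrophage genes formed another part. AIF1, a calcium-binding protein of macrophages also known as IBA1, had chip values of 0.91, 1.18, 1.04 and 1.5 and a mean of 1.16 (SE 0.14, adjusted p 0.502). Its log2 intensities were 9.75, 9.35, 10.18 and 9.14 in the polled animals and 10.66, 10.53, 11.22 and 10.65 in the scurred animals of chips 1 to 4. The lowest scurred level thus lay above the highest polled one. TIMD4, a phosphatidylserine receptor with which resident macrophages bind dying cells, had values of 0.78, 1.40, 1.23 and 1.06 and a mean of 1.12 (SE 0.142), also without overlap of levels. LRRC25, a leucine-rich repeat protein of myeloid cells, had a mean of 1.04 (SE 0.132).

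The remaining higher genes had mixed roles. DEFB4A, an antimicrobial beta-defensin, had the lowest p of the 24 genes, with values of 1.73, 1.77, 2.29 and 1.43 and a mean of 1.81 (SE 0.169, adjusted p 0.502). Its log2 intensity ran from 7.22 to 9.30 in polled and from 8.99 to 11.03 in scurred animals, and these ranges overlapped. Beta-defensins form a family of similar genes, so the transcript behind this probe is uncertain. CD109, a membrane protein that binds TGF-beta, varied least between chips, with values of 0.95, 1.15, 1.03 and 1.03 and a mean of 1.04 (SE 0.105), a difference of 2.05 times. The 4 polled levels of CD109 lay between 10.05 and 10.49 and the 4 scurred ones between 11.20 and 11.44. DDC, the decarboxylase that makes dopamine and serotonin from their precursors, had values of 1.34, 1.99, 2.36 and 2.50 and a mean of 2.05 (SE 0.223), without overlap of levels. GLIPR1, a secreted CAP-domain protein, had a mean of 1.03 (SE 0.149).

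Metabolic enzymes, among them SCD and ALDH1A1, formed one part of the lower genes. SCD, the desaturase that makes monounsaturated fatty acids, had chip values of −1.10, −1.17, −0.99 and −1.59 and a mean of −1.21 (SE 0.141, adjusted p 0.502). Its log2 intensities were 13.24, 15.36, 14.68 and 14.85 in polled and 12.14, 14.19, 13.69 and 13.26 in scurred animals, so that the groups overlapped through the low polled animal of chip 1. A second SCD probe had a mean of −0.66 (SE 0.224) and a value of 0.08 on chip 1. ALDH1A1, which oxidises retinal to retinoic acid, had values of −2.46, −1.49, −1.59 and −3.58 and a mean of −2.28 (SE 0.384). PON3, a lactonase, had values of −1.90, −1.74, −3.28 and −2.22, a mean of −2.28 (SE 0.284) and levels without overlap. The probe of PON3 was well above background in 4 of 4 polled animals but in 1 of 4 scurred animals, so its low levels are near the limit of the arrays. With the scanner software's processed signals its mean was −4.73. SIRT5, a mitochondrial deacylase, had a mean of −1.01 (SE 0.235) and a value of only −0.19 on chip 1.

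The remaining lower genes had mixed roles. GATA4, a zinc finger transcription factor, had values of −1.77, −1.72, −1.24 and −0.57 and a mean of −1.32 (SE 0.236). SP5, a target and mediator of WNT signalling, had values of −0.32, −1.24, −1.35 and −1.95 and a mean of −1.22 (SE 0.277). NTRK3, the neurotrophin-3 receptor, had a mean of −1.22 (SE 0.237), and its second probe had a mean of −0.46 (SE 0.104) with values from −0.54 to −0.39. TRIM36, a ubiquitin ligase, had a mean of −1.47 (SE 0.342). SYT12, a synaptotagmin, had a mean of −1.25 (SE 0.265) and ATP13A4, a P5-type cation-transporting ATPase, a mean of −1.15 (SE 0.223). TBATA had a mean of −1.06 (SE 0.144). TNFSF10, the death ligand TRAIL, had values of −1.98, −0.64, −0.83 and −0.88 and a mean of −1.08 (SE 0.253), and its levels did not overlap, which among the 12 lower genes held otherwise for PON3 alone. Of the 24 genes, 10 had levels without overlap, a count that the choice of the genes favours.

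Some transcripts of similar size have no gene symbol here. The array probes of the transcripts of lowest p in each direction are shown because they identify these transcripts, as the deposited scanner files give them, in lower case throughout. The files describe EE899397 as an unidentified transcript on BTA22, a cattle chromosome, and give no position for CB466040. Their place in a gene is not known here.
CB466040: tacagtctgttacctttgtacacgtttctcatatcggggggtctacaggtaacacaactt
EE899397: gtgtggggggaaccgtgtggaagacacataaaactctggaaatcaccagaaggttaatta
CB466040 was higher by 1.65, 1.48, 1.39 and 2.30 on chips 1 to 4, with a mean of 1.70 (SE 0.187, adjusted p 0.502). EE899397 had values of −0.67, −0.91, −1.52 and −1.21 and a mean of −1.08 (SE 0.173). LOC617511 had values of −1.69, −2.60, −0.77 and −2.95 and a mean of −2.0 (SE 0.387).

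The gene lists and their members were chosen with earlier results of these data known. Shares of list members here and below are therefore descriptions and no test. Collagens and the enzymes that modify and cross-link them were the most one-sided list of the dermis. Of 52 measured genes of fibrillar collagen and matrix, 49 had a mean above 0 and the median was 0.60, beside 5799 of 11598 genes (50%) and a median near 0 over all genes tested. There were 24 genes (46.2%) higher at an unadjusted p under 0.05 and 0 lower, beside 5.07% higher of all genes, and 0 passed the adjusted threshold. On 4 of 4 chips 20 genes (38.5%) were higher, beside 10.2% of all genes. The list's medians were 0.26, 0.78, 0.49 and 0.81 on chips 1 to 4. Without chip 1, 51 of 52 genes were higher and 29 (55.8%) had an unadjusted p under 0.05, beside 7.67% higher of all genes. Without chip 2 these counts were 45 and 9 (17.3%), beside 3.04%. Without chip 4 they were 45 and 14 (26.9%), beside 3.23%.

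COL5A1 and COL5A2, the chains of collagen V that sets the diameter of collagen fibrils, were among the members of lowest p. COL5A1 had chip values of 1.3, 1.68, 0.72 and 1.25 and a mean of 1.24 (SE 0.181, adjusted p 0.502). Its log2 intensities were 11.35, 10.08, 11.13 and 11.27 in polled and 12.66, 11.76, 11.85 and 12.52 in scurred animals, so that the groups did not overlap. COL5A2 had values of 0.82, 1.68, 0.90 and 1.36 and a mean of 1.19 (SE 0.184), likewise without overlap. P4HA2, a subunit of the prolyl hydroxylase that stabilises the collagen triple helix, had values from 0.67 to 1.33 and a mean of 0.91 (SE 0.153). PLOD2, which hydroxylates lysine for collagen cross-links, had a mean of 1.01 (SE 0.268), and EFEMP2, an elastic fibre protein that also guides cross-linking, a mean of 1.06 (SE 0.207).

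The major dermal collagens had less even values. COL1A1 stood at −0.10, 2.41, 0.70 and 1.69, with a mean of 1.17 (SE 0.433), and COL3A1 at −0.46, 2.38, 0.55 and −0.18, with a mean of 0.57 (SE 0.498). ELN, MFAP4 and PCOLCE2 were the 3 genes with a mean below 0, that of PCOLCE2 being −0.0049. ELN, elastin itself, had a mean of −0.33 (SE 0.493) with values of −1.96 on chip 1 and 0.73 on chip 2, and MFAP4, a microfibril protein, a mean of −0.30 (SE 0.583).

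**Figure D3:**
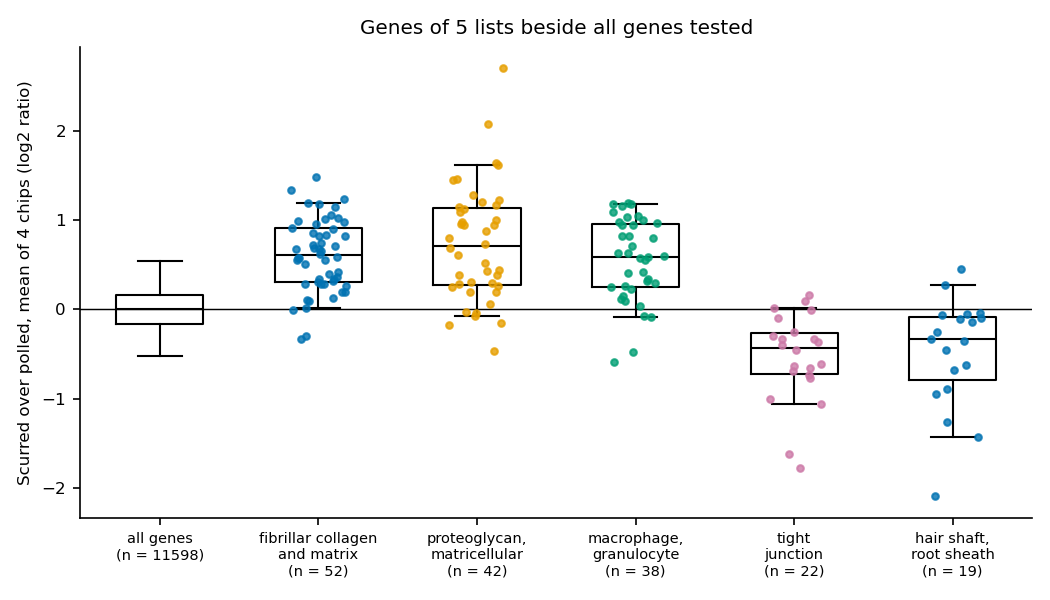
Mean log2 ratio of scurred over polled over 4 chips for the genes of 5 lists, beside all 11598 genes tested. Boxes give the quartiles and the median, whiskers leave out 5% of the genes at each end and points are the genes; the medians are 0.60 for fibrillar collagen and matrix, 0.71 for proteoglycans and matricellular proteins, 0.59 for macrophages and granulocytes, −0.43 for tight junctions and −0.33 for hair shaft and root sheath.

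Proteoglycans and matricellular proteins, which space collagen fibrils and adjust how cells adhere to them, were higher for 36 of 42 genes, with a median of 0.71. Of these, 12 (28.6%) had an unadjusted p under 0.05 and were higher, and 0 were lower, beside 5.07% and 3.89% of all genes. The chip medians were −0.14, 1.20, 0.54 and 0.81. Without chip 1, 41 of 42 genes were higher and 28 (66.7%) had an unadjusted p under 0.05, beside 7.67% higher of all genes. Without chip 4 there were 7 (16.7%), beside 3.23%. TNC, tenascin C of healing and developing matrix, had values of 5.09, 1.18, 0.90 and 3.62 and a mean of 2.70 (SE 0.774), and its scurred levels of 9.75 to 13.43 lay above the polled levels of 8.34 to 8.99. TGFBI, a TGF-beta-induced adhesion protein, had values of 2.07, 1.22, 0.87 and 0.95 and a mean of 1.28 (SE 0.232). THBS2, thrombospondin 2, had a mean of 1.17 (SE 0.214), and VCAN, the large proteoglycan versican, a mean of 1.0 (SE 0.292). POSTN, periostin, turned its sign between chips, with −2.87 on chip 1 and 3.45, 2.50 and 1.83 on chips 2 to 4.

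The TGF-beta pathway, whose ligands drive matrix production by fibroblasts, was less one-sided, with 17 of 26 genes higher and a median of 0.11. Of its genes 4 (15.4%) were higher at an unadjusted p under 0.05 and 0 lower, beside 5.07% and 3.89% of all genes. Without chip 1 these counts were 7 (26.9%) and 2 (7.69%), beside 7.67% and 6.91%. The 4 genes included the ligands TGFB1, with a mean of 0.42 (SE 0.111), and TGFB2, with values of 1.64, 0.55, 0.85 and 0.92 and a mean of 0.99 (SE 0.204), and the target gene TGFBI. The receptor genes TGFBR1 and TGFBR2 had means of 0.10 and 0.25.

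Levels of 5 fibroblast markers, which are themselves members of these lists, are given beside them. The summed level of 5 of 5 fibroblast markers, COL1A1, COL1A2, COL3A1, DCN and LUM, ran from 13.97 to 15.56 on the log2 scale in polled and from 15.01 to 16.34 in scurred animals. It differed by −0.55, 2.16, 0.83 and 0.79 between the animals of chips 1 to 4. The summed level of 5 of 5 keratinocyte markers, KRT5, KRT14, KRT1, KRT10 and DSP, differed by 2.50, 0.61, −0.95 and −3.0. The polled animals had keratinocyte levels of 13.69 to 15.90 and the scurred ones of 12.73 to 17.17. The part of these cells in the matrix values was not tested.

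**Figure D4:**
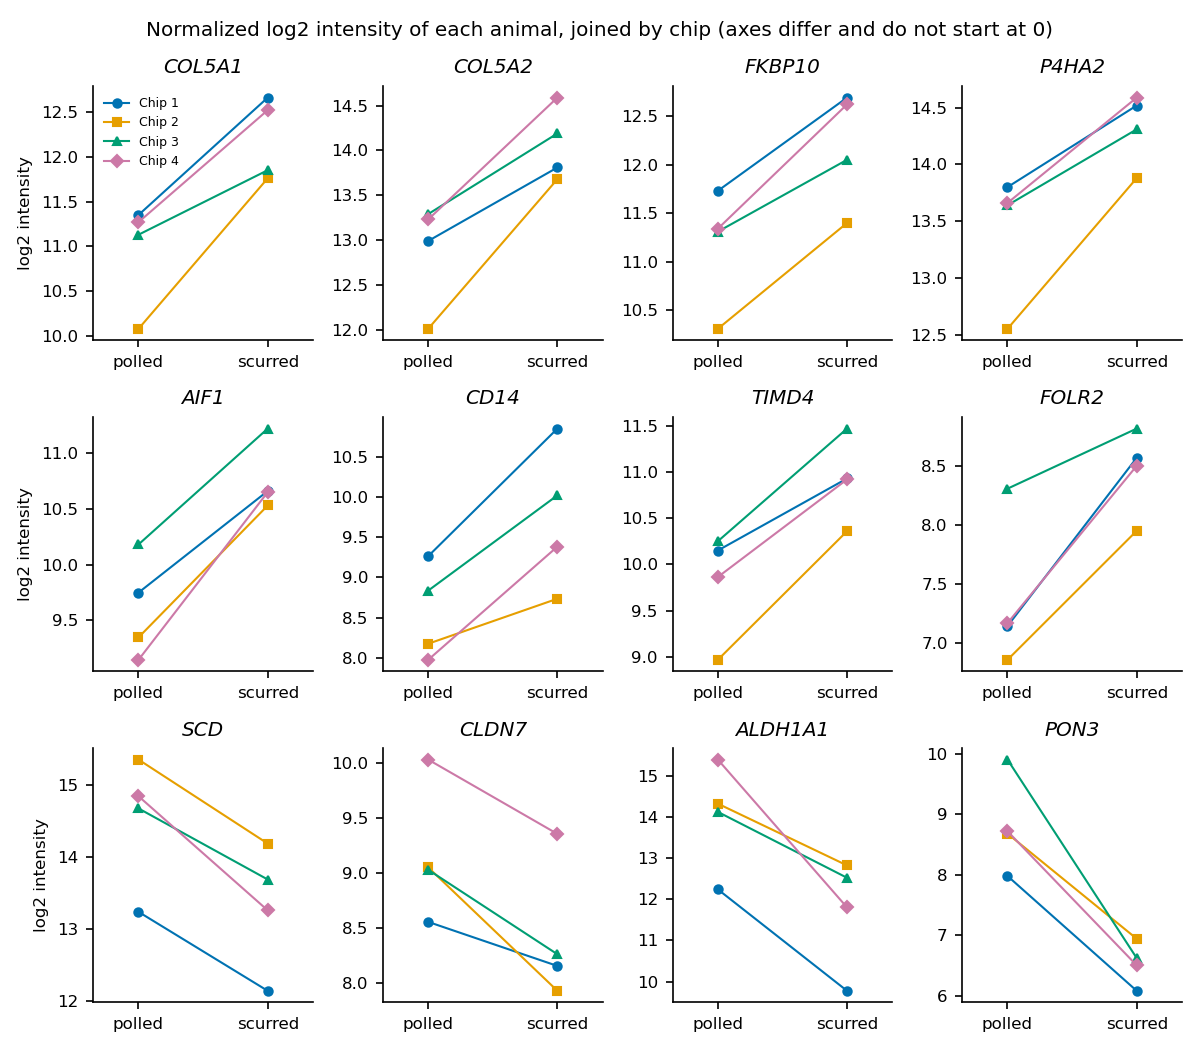
Normalized log2 intensity of 12 genes in each polled and each scurred animal, with a line joining the animals of a chip; the axes differ between genes and do not start at 0. All lines for COL5A1, COL5A2, FKBP10, P4HA2, AIF1, CD14, TIMD4 and FOLR2 go up from polled to scurred and all lines for SCD, CLDN7, ALDH1A1 and PON3 go down, in part by the choice of the genes.

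Macrophage, dendritic cell and granulocyte genes were higher for 34 of 38 measured genes, with a median of 0.59. Of these 19 (50%) were higher at an unadjusted p under 0.05, beside 5.07% of all genes, and 22 (57.9%) were higher on 4 of 4 chips, beside 10.2%. The chip medians were 0.54, 0.31, 0.39 and 0.95, so the list lay above 0 on each chip. With any 1 chip left out, 31 to 36 of the 38 genes were higher and 14 to 18 of them had an unadjusted p under 0.05. With the sex term in the fit there were 14 and the median was 0.48.

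Receptors of tissue macrophages led this list. CD14, the lipopolysaccharide co-receptor, had chip values of 1.59, 0.56, 1.18 and 1.41 and a mean of 1.18 (SE 0.199, adjusted p 0.502). FOLR2, a folate receptor of resident macrophages, had values of 1.43, 1.09, 0.51 and 1.33 and a mean of 1.09 (SE 0.187). VSIG4, a complement receptor of resident macrophages, had a mean of 1.19 (SE 0.272), and CD163, the haemoglobin scavenger receptor, a mean of 1.0 (SE 0.218). C1QA, C1QB and C1QC, the chains of complement C1q that macrophages secrete, had means of 0.80 (SE 0.203), 1.03 (SE 0.287) and 1.04 (SE 0.195). CSF1R, the receptor of the macrophage growth factor, had a mean of 0.82 (SE 0.275), and FCGR1A, a high-affinity antibody receptor, had even values of 0.67, 0.62, 0.54 and 0.54. LY86, a partner of the receptor RP105, was the exception with an unadjusted p under 0.05, with values from −0.77 to −0.13 and a mean of −0.48 (SE 0.149). Genes of antigen presentation did not share the higher values. BOLA-DQA2 had a mean of −1.45, BOLA-DRB3 −0.85, CIITA −0.74 and BOLA-DRA −0.20, while CD74 had 0.10 and BOLA-DRB2 0.22. The dendritic cell genes CD207 and CLEC9A had means of 0.04 and 0.04.

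Of the macrophage markers, CD14 and CD163 are also named above, so the level of these markers is no separate evidence. The summed level of 3 of 3 macrophage markers, CD68, CD14 and CD163, ran from 10.17 to 11.65 in polled and from 11.44 to 12.20 in scurred animals. It was higher in the scurred animal by 1.09, 0.86, 0.55 and 1.71 on chips 1 to 4, whereas the fibroblast markers were lower on chip 1 and the keratinocyte markers lower on chips 3 and 4. For comparison, 19 of 29 T and B lymphocyte genes were higher and their median was 0.07, and CD3E, a chain of the T cell receptor complex, had a mean of 0.09 (SE 0.144). LYZ, lysozyme, had values of −2.68 on chip 1 and 1.93 on chip 4.

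Of 34 chemokine and cytokine genes 22 were higher, and their median was 0.31. At an unadjusted p under 0.05, 4 (11.8%) were higher and 1 (2.94%) lower, beside 5.07% and 3.89% of all genes. Without chip 1, 28 of 34 were higher, and at that p 10 (29.4%) were higher and 2 (5.88%) lower, beside 7.67% and 6.91%. Without chip 3 these counts at that p were 2 (5.88%) and 0, beside 3.48% and 2.27%. CCL4, which recruits monocytes and T cells, had values of 1.64, 0.77, 1.96 and 1.32 and a mean of 1.42 (SE 0.219). CCL8, another monocyte attractant, had a mean of 1.21 (SE 0.368), and GRO1, a neutrophil attractant of the CXCL1 family, a mean of 1.33 (SE 0.276). CXCL8 and CXCL2, attractants of neutrophils, were high on chip 1 alone, at 5.14 and 5.98, beside −0.05 to 1.41 and 0.52 to 1.49 on the other chips. GRO1, CXCL2 and CXCL8 are related in sequence, and cross-hybridisation between such probes was not tested.

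Tight junction genes, which seal neighbouring epithelial cells, lay on the other side. Of 22 measured genes 19 were lower in scurred skin, with a median of −0.43, and 8 (36.4%) were lower at an unadjusted p under 0.05, beside 3.89% of all genes. On 4 of 4 chips 7 genes (31.8%) were lower, beside 8.64% of all genes. The chip medians were 0.18, −0.61, −0.57 and −1.10. Without chip 1 the count of lower genes at an unadjusted p under 0.05 was 13 (59.1%), beside 6.91% of all genes. Without chip 2 it was 5 (22.7%), without chip 3 it was 4 (18.2%) and without chip 4 it was 3 (13.6%). The shares of all genes were then 2.65%, 2.27% and 2.55%. With the sex term the count was 3 (13.6%), beside 1.66%.

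CLDN7, a claudin of glandular and simple epithelia, had chip values of −0.40, −1.12, −0.77 and −0.67 and a mean of −0.74 (SE 0.152, adjusted p 0.502). F11R, junctional adhesion molecule A, had values of −0.62, −0.67, −1.30 and −0.51 and a mean of −0.77 (SE 0.17), and its scurred levels of 12.79 to 13.38 lay below the polled levels of 13.65 to 14.09. CLDN8, a claudin of ducts, had values of −0.18, −2.07, −1.88 and −2.98 and a mean of −1.78 (SE 0.457), with a level of 8.82 in the polled animal of chip 1 and of 12.27 to 13.55 in the other polled animals. OCLN, occludin, had a mean of −0.70 (SE 0.19), and CLDN1, the main claudin of the epidermal barrier, a mean of −1.06 (SE 0.312). Keratinocyte markers were higher in the scurred animal on chips 1 and 2 and lower on chips 3 and 4, as given above, and their part in these values was not tested.

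Among 33 genes of sebaceous glands and lipid synthesis, whose median was −0.19, 7 were lower (21.2%) and 2 (6.06%) higher at an unadjusted p under 0.05. Over all genes these shares were 3.89% and 5.07%. The lower genes of this list numbered 13 (39.4%) without chip 1, beside 6.91% of all genes. They numbered 4 (12.1%) without chip 3, 3 (9.09%) without chip 4 and 4 (12.1%) with the sex term. The shares of all genes were then 2.27%, 2.55% and 1.66%. Besides SCD, the 7 lower genes with all chips included ACSBG1, an acyl-CoA synthetase, with a mean of −1.0 (SE 0.267), and GPAM, which starts triglyceride synthesis, with a mean of −0.84 (SE 0.199). FASN, fatty acid synthase, had values of 0.97 on chip 1 and −0.97 to −1.96 on chips 2 to 4.

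Hair shaft and inner root sheath genes were lower for 17 of 19 genes, with a median of −0.33, but the values came from part of the animals. KRT27, a keratin of the inner root sheath, stood at −0.05, −4.84, 0.04 and −3.53 on chips 1 to 4, with a mean of −2.09 (SE 0.949). TCHH, trichohyalin, stood at 0.78, −3.34, −0.06 and −2.42. KRT27 and TCHH were thus low in the scurred relative to the polled animal on chips 2 and 4 only. Of this list 1 gene (5.26%) was lower and 1 higher at an unadjusted p under 0.05, beside 3.89% and 5.07% of all genes. With the sex term 8 genes (42.1%) were lower, beside 1.66% of all genes in that fit. Without chip 1 there were 6 (31.6%) lower, beside 6.91%.

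Retinoid and xenobiotic genes lay on both sides. At an unadjusted p under 0.05, 4 of 25 genes (16%) were higher and 4 (16%) lower, beside 5.07% and 3.89% of all genes. Without chip 3 these counts were 2 (8%) and 3 (12%), beside 3.48% and 2.27%. The lower ones with all chips were PON3, ALDH1A1, the glutathione transferase GSTA1, with a mean of −1.48 (SE 0.479), and the nuclear receptor RXRG, with a mean of −0.57 (SE 0.175). The higher ones included RBP4, ALDH1A3 and RARG. RBP4, which carries retinol in blood, had values of 2.48, 1.08, 1.80 and 1.01 and a mean of 1.59 (SE 0.283, adjusted p 0.502), and its scurred levels of 11.48 to 13.68 lay above the polled levels of 10.40 to 11.21. ALDH1A3, which like ALDH1A1 makes retinoic acid, had a mean of 0.83 (SE 0.218). The enzymes ALDH1A1 and ALDH1A3 thus lay on opposite sides.

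Genes tied to horns and to the polled locus were mostly near 0, with 11 of 29 higher and a median of −0.03. At an unadjusted p under 0.05, 2 of 29 (6.9%) were higher and 0 lower, beside 5.07% and 3.89% of all genes. Without chip 1, 4 (13.8%) were higher and 1 (3.45%) lower, beside 7.67% and 6.91%, and without chip 2, 3 or 4 there were 0. RXFP2 had values of 0.22, 0.05, −0.32 and −0.06 and a mean of −0.03 (SE 0.133, adjusted p 0.963). Its probe was well above background in 2 of 4 polled and 3 of 4 scurred animals, so its level was close to background. FOXL2 had values of −0.65, 2.60, 2.72 and 3.50 and a mean of 2.04 (SE 0.709, adjusted p 0.551). Its log2 intensities were 9.13, 6.80, 7.53 and 6.79 in the polled animals and 8.48, 9.40, 10.25 and 10.29 in the scurred ones. The polled animal of chip 1 was thus the high one of its group, and without chip 1 the mean was 2.94. TWIST1, a factor of cranial mesenchyme, had values of −0.48, 0.81, 1.07 and 1.43 and a mean of 0.71 (SE 0.333). IFNGR2, an interferon gamma receptor chain encoded near the polled locus, had values of −0.12, 0.77, 0.85 and 0.89 and a mean of 0.60 (SE 0.21).

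SFRP2, a secreted modulator of WNT signalling made by dermal fibroblasts, had the largest mean among the genes described. Its values were 0.47, 4.49, 3.86 and 5.54, with a mean of 3.59 (SE 0.843, adjusted p 0.502), or 12.1 times. Its log2 intensities were 12.98, 9.76, 9.90 and 9.68 in the polled and 13.45, 14.25, 13.76 and 15.22 in the scurred animals. As with FOXL2, the polled animal of chip 1 stood near the scurred animals. The WNT list, which holds SFRP2, was centred near 0, with 28 of 49 higher and a median of 0.06. At an unadjusted p under 0.05, 1 (2.04%) was higher, which was SFRP2, and 5 (10.2%) were lower, beside 5.07% and 3.89% of all genes. Without chip 1 these counts were 5 (10.2%) and 4 (8.16%), beside 7.67% and 6.91%. Without chip 4 they were 1 (2.04%) and 1 (2.04%), beside 3.23% and 2.55%. The 5 lower ones were receptors: LGR4, LGR5, FZD6, FZD7 and TNFRSF19, with means of −0.74, −0.46, −0.60, −0.56 and −0.36.

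In other signalling pathways of appendage development 11 of 19 hedgehog genes, 18 of 34 BMP genes and 13 of 25 FGF genes were higher, with medians of 0.05, 0.06 and 0.000398. In the BMP list MSX1, a homeobox target of BMP signals, had a mean of −0.65 (SE 0.196) with values of −1.01, −0.14, −0.42 and −1.02, and its relative MSX2 a mean of 0.45 (SE 0.16) with values of 0.81, 0.32, 0.06 and 0.60. Of 42 transcription factors of skull and appendages 21 were higher. At an unadjusted p under 0.05, 3 (7.14%) were higher and 4 (9.52%) lower, beside 5.07% and 3.89% of all genes. Without chip 1 these were 5 (11.9%) and 8 (19%), beside 7.67% and 6.91%.

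**Figure D5:**
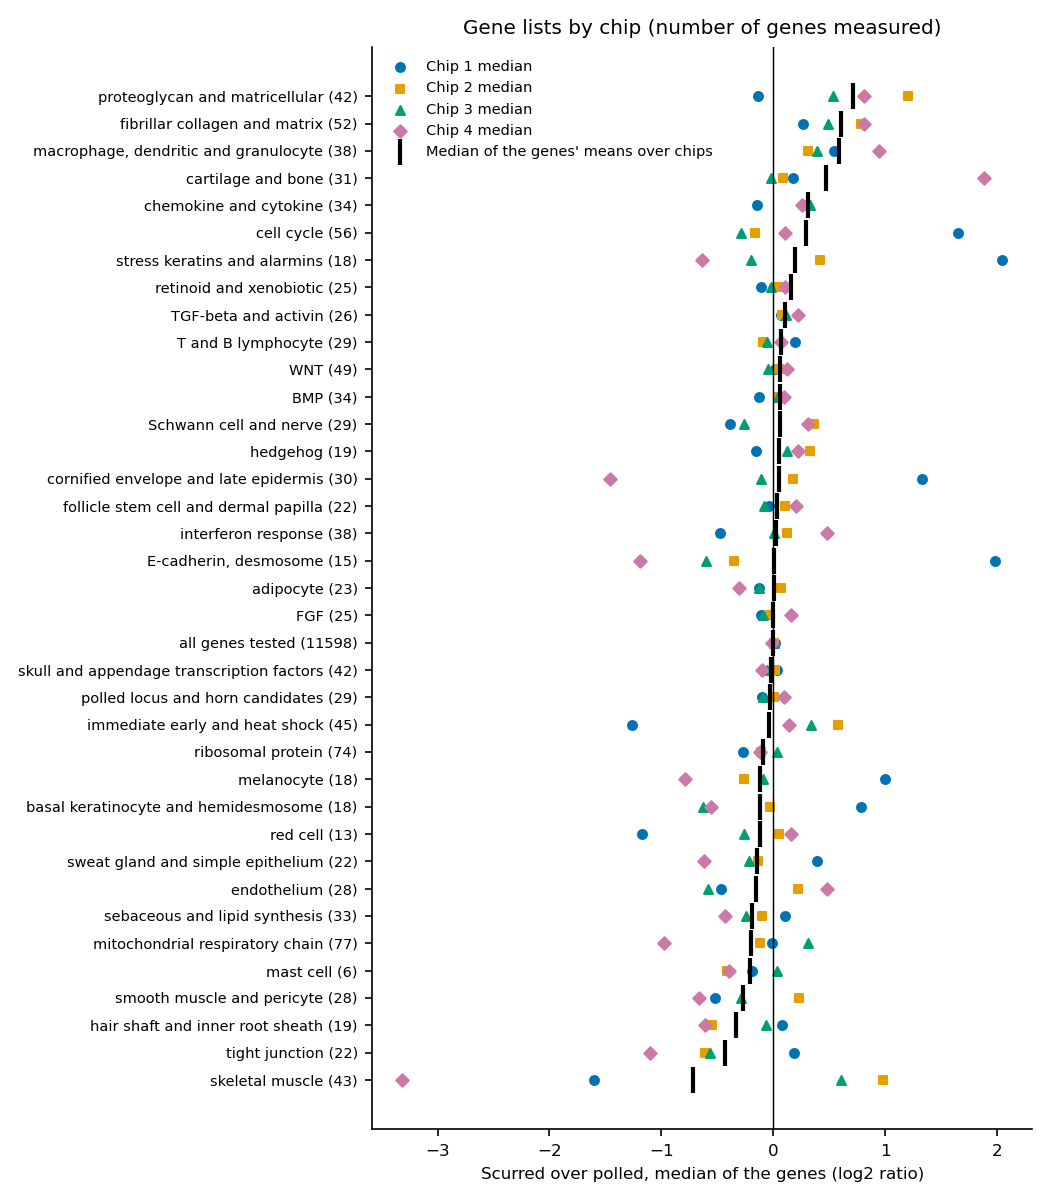
Median log2 ratio of scurred over polled for the gene lists and for all genes tested, with the number of genes measured in brackets, 1 point per chip and a bar for the median of the genes' means over chips. Lists of collagen, proteoglycan and macrophage genes lie highest, while skeletal muscle runs from −3.32 on chip 4 to 0.98 on chip 2.

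Several lists had large medians that rested on single animals. Cartilage and bone genes had chip medians of 0.18, 0.09, −0.02 and 1.88. On chip 4 DMP1 and SOST, genes of osteocytes, stood at 5.91 and 4.46, and OMD, osteomodulin of mineralised matrix, at 4.50, while on the other chips DMP1 stood between 0.07 and 0.37. BGLAP, osteocalcin and the 1 of 3 bone markers tested, had a level of 14.07 in the scurred animal of chip 4 and of 10.08 to 10.98 in the other 7 animals. RUNX2, the master factor of osteoblasts, had values of 0.98, 0.80, 0.33 and 3.11 and a mean of 1.3 (SE 0.482), and without chip 4 its mean was 0.70. A second RUNX2 probe had a mean of 0.30 (SE 0.149).

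Skeletal muscle genes had chip medians of −1.60, 0.98, 0.60 and −3.32, with 37 of 43 lower by their mean and 0 at an unadjusted p under 0.05. Without chip 4, 22 of 43 were higher and the median was 0.02. The summed level of the 4 of 5 muscle markers tested ran from 11.17 to 16.60 in polled and from 12.21 to 15.07 in scurred animals, which overlap. Red cell markers differed by −3.75, 2.05, −2.11 and 3.33. The levels of muscle and red cell markers thus varied between animals without a common direction.

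On chip 1 cell cycle genes and stress keratins and alarmins had high scurred over polled ratios. Cell cycle genes had a median of 1.65 on chip 1 and of −0.29 to 0.11 on the others, and stress keratins and alarmins 2.04 on chip 1. Without chip 1 the list medians were −0.13 and −0.15, beside 0.29 and 0.19 with it. S100A9, an alarmin of neutrophils and inflamed keratinocytes, stood at 3.83 on chip 1 and at 0.16 to 0.73 on the others. CCNB1, the mitotic cyclin, stood at 4.23 on chip 1 and at −0.49 to 0.23 on the others. KRT5, a keratin of basal keratinocytes, stood at 3.61, −0.34, −0.98 and −3.18.

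Ribosomal protein genes were lower for 56 of 74 genes, but by a median of only −0.09, and median centring turned this to 0.13. RPL4 was an exception, with values of 1.75, 2.07, 0.74 and 0.57 and a mean of 1.28 (SE 0.3). Ribosomal protein genes have near-identical copies, so the transcript behind this probe is uncertain. Mitochondrial respiratory chain genes were lower for 66 of 77 genes with a median of −0.20, with a median of −0.98 on chip 4 and 0.31 on chip 3, and 0 of them had an unadjusted p under 0.05. Without chip 4, 48 of 77 were higher.

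The other lists varied between chips, and several moved to one side without chip 1. In the epidermis 16 of 30 cornified envelope genes were higher, with chip medians of 1.33, 0.17, −0.11 and −1.46, and 8 of 15 genes of E-cadherin junctions and desmosomes, with chip medians of 1.98, −0.35, −0.60 and −1.19. Without chip 1, 22 of 30 cornified envelope genes were lower, 5 (16.7%) of them at an unadjusted p under 0.05. Of the E-cadherin and desmosome genes 14 of 15 were then lower, with a median of −0.75 and 10 (66.7%) at that p, beside 6.91% of all genes. Basal keratinocyte genes were lower for 12 of 18, with a median of −0.12. At an unadjusted p under 0.05, 1 (5.56%) was lower with all chips and 5 (27.8%) without chip 1. The shares of all genes were 3.89% and 6.91%. KRT18, a keratin of simple epithelia in the sweat gland list, had values of −0.29, −1.07, −0.66 and −0.95 and a mean of −0.74 (SE 0.166). Of that list 15 of 22 genes were lower. At an unadjusted p under 0.05, 2 (9.09%) were lower with all chips, beside 3.89% of all genes. Without chip 1, 6 (27.3%) were lower, beside 6.91%, and 1 (4.55%) was higher, beside 7.67%. Follicle stem cell and dermal papilla genes were higher for 12 of 22. Melanocyte genes had a median of 1.0 on chip 1 and of −0.79 on chip 4, and KIT, the receptor of stem cell factor on melanocytes and mast cells, a mean of −0.39 (SE 0.126). Without chip 1, 15 of 18 melanocyte genes were lower, with a median of −0.47. At an unadjusted p under 0.05, 9 (50%) were then lower and 2 (11.1%) higher, beside 6.91% and 7.67% of all genes. With all chips these counts were 1 and 1. Mast cell genes were lower for 5 of 6.

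In vessels and connective tissue, 23 of 28 smooth muscle and pericyte genes were lower, with a median of −0.27. At an unadjusted p under 0.05, 2 (7.14%) were lower, beside 3.89% of all genes, and 9 (32.1%) without chip 2, beside 2.65%. Without chip 2 every scurred animal was male and every polled animal female, so horn type and sex cannot be told apart there. With the sex term 18 of 28 of these genes were lower, with a median of −0.15. MYH11, the myosin heavy chain of smooth muscle, had values of −1.67, −0.21, −1.70 and −1.08 and a mean of −1.17 (SE 0.286). Endothelial genes were lower for 18 of 28, with chip medians of −0.46, 0.22, −0.58 and 0.48. Adipocyte genes were higher for 12 of 23, Schwann cell and nerve genes for 18 of 29 and interferon response genes for 21 of 38. Of the interferon response genes 30 of 38 were higher without chip 1 and 10 of 38 without chip 4. Immediate early and heat shock genes, which respond to handling of tissue as well as to stress, were higher for 21 of 45, with chip medians of −1.26, 0.57, 0.34 and 0.14. Without chip 1, 34 of 45 were higher, 10 (22.2%) of them at an unadjusted p under 0.05, beside 7.67% of all genes. With all chips that count was 1. Of the 10 measured genes of the sex chromosomes list 4 were higher.

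The transcripts named next were chosen by the lowest p of the male minus female term, so their agreement with the labels on sex follows from the choice and is no check of those labels. The probe of BI535042 is shown because it stood first by that choice, and no symbol is given for it here.
BI535042: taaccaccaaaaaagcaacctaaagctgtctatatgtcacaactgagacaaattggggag
Its scurred over polled values were −6.47, 5.42, −6.64 and −5.85, so that the sign turned on chip 2, where the scurred animal was the female. Its log2 intensities were 12.75, 13.41, 13.32 and 13.47 in the 4 females and 6.27, 7.98, 6.69 and 7.62 in the 4 males. BE808926 and AW313543 turned in the same way, with −3.85, 4.13, −4.64 and −3.52 and with −3.19, 5.31, −5.60 and −4.05. The scanner files place BI535042, BE808926 and AW313543 near each other on BTA24. Whether they are separate transcripts was not tested. For the male minus female term, 0 probes passed and 201 (1.27%) had an unadjusted p under 0.05. With that term in the fit 696 probes had an unadjusted p under 0.05 for scurred against polled and 0 passed. With the term AIF1 had 1.17 beside 1.16 without it, COL5A1 1.39 beside 1.24, SCD −1.20 beside −1.21 and PON3 −2.10 beside −2.28. That fit gives chip 2 the same weight as the mean of chips 1, 3 and 4. These genes were chosen for a low p, which favours similar values, so the values cannot separate horn type from sex. AV606331 was at 11.85 in the polled male of chip 2 and at 6.42 to 6.82 in the other 7 animals, and so did not follow sex or horn type.

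The horned animals on the same chips give a further level for each gene. The horned minus polled values below share the polled animals with the scurred values, so they are set side by side without a test, and 1 of the 3 horned animals was on both chips 2 and 4. AIF1 had a mean of 1.70 in horned over polled and −0.55 in scurred over horned, with the scurred level below the horned one on 4 of 4 chips. DDC likewise had 3.53 in horned over polled and −1.56 in scurred over horned. SFRP2 had 4.57 and −0.99, and FOXL2 2.54 and −0.57. For SCD the 2 values were −1.56 and 0.36, and for PON3 they were −2.40 and 0.15. Other genes had their high level in scurred skin. CD109 had 0.36 in horned over polled and 0.71 in scurred over horned, higher on 4 of 4 chips. PPIC had 0.24 and 0.996, FIBIN −0.06 and 1.14, and TGFBI 0.34 and 0.99, each above horned on 4 of 4 chips. Their choice by high scurred over polled values favours such levels. The share of all probes above horned on 4 of 4 chips was not counted.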

How the data were processed

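RNA of skin biopsies was hybridised to 2-colour Agilent arrays, and the authors' deposited scanner files give red and green spot intensity, made with Agilent Feature Extraction (9.5.1 per the submitters' processing notes). The series' deposited value table holds log10 ratios that followed the scanner files' ratios with a slope of 1, or of −1 for horned over polled arrays, which were turned back; column medians of the direct arrays on chips 1 to 4 were 0.00155, −0.00631, 0.00856 and 0.00971. It was used as an alternative. Here mean intensities were background corrected (normexp, offset 50) and loess normalised within arrays, flagged spots were dropped and spots of a probe averaged. Probes well above background in at least 3 of 8 animals, with a value on at least 3 of 4 chips, were tested with limma (3.58.1, R 4.3.3) as the mean of 4 chip values against 0 with Benjamini-Hochberg adjustment over 15805 probes at 0.05. Residual degrees of freedom were 3. Labels do not say more on the animals than given, so p-values measure the spread between these chip pairs. The number of arrays limits precision.

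Levels of animals are log2 intensities after loess and Aquantile scaling, with the dye effect taken off. Of 21475 probes 16317 had a symbol, from a RefSeq table of assembly ARS-UCD2.0. Matching used gene identifiers or accessions in the files. It also used the human gene named in a similarity description (2793 probes), a symbol (136) or an older symbol (281). A gene takes its brightest probe. Named genes were the 12 higher and 12 lower of lowest p with one sign and a mean of at least 1 in size, 3 by p and 2 by size of each list, and genes tied to horns; others were named for contrast after their values were seen. The 37 lists and all members were chosen with earlier results of these data known. The test was checked on simulated data. Alternatives were the processed signals, median centring, no dye effect, the closed loop, a sex term with and without the horned animals, filters, no pairing, and each chip left out. Pairing comes from the shared array; deviations of the animals of a chip correlated at 0.25, 0.326, 0.464 and −0.00544 across probes. Some named genes are not reported here.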

Additional observations from a re-analysis of the deposited data

Results flagged for a closer look

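A chip that stood far from the other 3 was found for 10 of the 201 genes in the gene table and for 2 of 37 lists, by Dixon's limit of 0.829 for 4 values. Chance gives about 1 such case in 20. On chip 1, S100A9 stood at 3.83 beside 0.156 to 0.729, CCNB1 at 4.23 beside −0.485 to 0.228, MCM2, a replication helicase subunit, at 1.09 beside 0.102 to 0.24, SELE, an endothelial selectin, at 2.18 beside −1.99 to −1.70, and MLPH, which links melanosomes to their motor, at 1.06 beside −1.57 to −1.26. IFNGR2 stood at −0.124 on chip 1 beside 0.772 to 0.889, and the chemokine and cytokine list had a median of −0.144 beside 0.26 to 0.327.

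On chip 4, BGLAP stood at 3.18 beside 0.0718 to 0.271, COX4I1, a subunit of respiratory complex IV, at −0.711 beside −0.236 to −0.183, and the cartilage and bone list at a median of 1.88 beside −0.0161 to 0.18. On chip 2, where the scurred animal was female, ACTA2, smooth muscle actin, stood at 0.331 beside −0.869 to −0.772, and PLIN1, a lipid droplet protein, at 0.334 beside −0.0272 to 0.0208.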

How the results depend on the processing

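No probe passed the adjusted threshold under any of the 14 alternatives. The lowest adjusted p over them was 0.0792, without chip 2, and the highest of their minima 0.823, without chip 4. The value of 0.0792 was that of BI535042, which was high in all females and low in all males. Without chip 2 every scurred animal was male and every polled animal female, so horn type and sex cannot be told apart there. Probes at an unadjusted p under 0.05 numbered 1377, and 696 with the sex term, 798 with no replicate block (no pairing by chip, lowest adjusted p 0.761) and 863 to 2191 with each chip left out in turn. Without the filter on dim probes they were 1819 of 21475. Of 2803 values of the named genes under alternatives, 2732 kept their direction and 71 did not. The 24 leading genes kept theirs, which their choice by one sign on 4 chips largely fixed, so it is no evidence. The spread between chips was wide for many lists, and within it several medians turned their sign: of 14 alternatives the adipocyte median kept its sign in 4, the E-cadherin one in 7, the cornified envelope, follicle and polled locus ones in 8 and the immediate early one in 9. Medians moved by more than that spread in the following cases. The hair shaft median was −0.86 with processed signals and the ribosomal one 0.13 with median centring. The retinoid median of 0.16 was −0.0196 with no dye effect taken off, 0.0165 with the sex term and −0.083 to 0.0646 without 1 chip. In the fit with sex and horned animals the WNT median was −0.0342 and the adipocyte one −0.15. Dim probes such as those of RXFP2 and PON3 in scurred skin limit what could be measured. Causes were not tested.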
